A study of Mus musculus with 15 samples.

Results

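The livers of DEN-treated mice that received the Gas1 plasmid (group G) were compared with those of DEN-treated mice that received the empty plasmid (group T). The members were taken by their labels, 6 arrays of group G and 5 of group T, which is 11 of the 15 arrays of the series. Arrays 4 and 5 of group T carried the same RNA code and were averaged, so that the comparison held 6 livers of G and 4 livers of T, 10 of the 13 livers in all. The other 3 livers, of group C, entered the model for its estimate of the spread and are given as background only.

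All animals were male CD1 mice, an outbred stock. Groups T and G were injected with DEN (diethylnitrosamine, a liver carcinogen that is activated in hepatocytes) at 15 days of age at 25 µg per g of body weight, and group C with saline. From week 28 to week 34 every animal received a weekly hydrodynamic gene delivery (HGD) of 50 µg of plasmid, in which a large volume pushed into the tail vein carries the DNA into the liver. The plasmid was pcDNA3/CAG-HAGas1 in group G, coding for an HA-tagged GAS1 under the CAG promoter, and empty in groups T and C. Livers were taken at week 35 according to the methods, although the sample records state an age of 10 weeks. The CAG promoter is not specific for a cell type, HGD reaches a part of the liver cells, and the RNA came from pieces of liver in which tumour and surrounding tissue were not separated in the labels.

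GAS1 is a protein bound to the plasma membrane that halts the cycle when it is made in growing cells, and it is a co-receptor of hedgehog ligands during development. The adult liver is above all a secretory and metabolic organ. Hepatocytes fold, glycosylate and export most plasma proteins through the endoplasmic reticulum (ER), and they oxidise fatty acids in mitochondria and peroxisomes. In the acute phase response they raise serum amyloid A, haptoglobin and related plasma proteins.

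Signals are given as normalized log2 intensities, so that a difference of 1 means a doubling of the corrected signal. An offset of 50 added in the background correction compresses the differences of dim probes. With an offset of 16 the difference of Ctse was 2.55 in place of 1.67, that of Capn8 -1.37 in place of -0.90, and that of Wif1 -0.90 in place of -0.51, while with Agilent's processed signal, which has no offset, they were 5.37, -2.91 and -2.13. No array of T held Ctse well above background, no array of G held Wif1, and 1 array of G held Capn8. The sizes of these differences thus depend on the values given to spots at background. A probe counted as detected when it was well above background in at least 4 of the 10 livers, whichever their group, which left 12190 of 22032 genes. Differences were tested with limma over all 12190 genes, with Benjamini-Hochberg adjustment at 0.05. Spots well above background numbered between 18041 and 29765 per liver in group G and between 19970 and 22638 in group T, a difference that did not pass an exact two-sided permutation test (p = 0.186, smallest possible 0.00952). Nothing in the labels says how the animals were caged or dissected, so p-values measure the spread between these livers. Hepatocyte genes dominated in every liver, with albumin (Alb) between 17.65 and 18.14 in G and between 17.59 and 18.19 in T. In liver pieces, fewer cells of a type and less RNA per cell cannot be told apart.

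The Gas1 signal itself did not separate the groups. The array holds 3 Gas1 probes on the minus strand of chromosome 13 (mm9). The one at 60277268 to 60277327 lies within the coding sequence and is shown because it is the probe placed to hybridise with a Gas1 transgene as well as with the endogenous transcript, if the cDNA, which the paper describes as murine and whose extent is not given in the sources used here, covers it.

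Gas1 coding probe: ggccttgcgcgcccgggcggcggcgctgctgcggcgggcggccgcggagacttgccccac

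This probe gave 6.95, 7.21, 6.83, 6.96, 7.06 and 7.37 in livers G1 to G6 and 6.93, 7.18, 7.29 and 7.39 in livers T1 to T4. Both groups overlapped, with a G minus T difference of -0.13 (SE 0.13, adjusted p = 0.739 from limma over the detected probes). The probe near the 3′ end of the transcript, at 60276399 to 60276458, differed by 0.07 (SE 0.13). The probe near the 5′ end, at 60278243 to 60278302, differed by 0.29 (SE 0.10, adjusted p = 0.294), and it was well above background on 4 arrays of G and on none of T, with the spot of liver G2 left out for its flag. Over the 3 probes the Gas1 difference was 0.08 (SE 0.08, adjusted p = 0.735 from limma), with livers of G between 6.49 and 6.79 and livers of T between 6.41 and 6.61. The level of Gas1 thus does not check the labels of the groups, which rest on the sample records. The plot of the Gas1 probes shows the 3 sets of values beside group C.

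**Figure D1:**
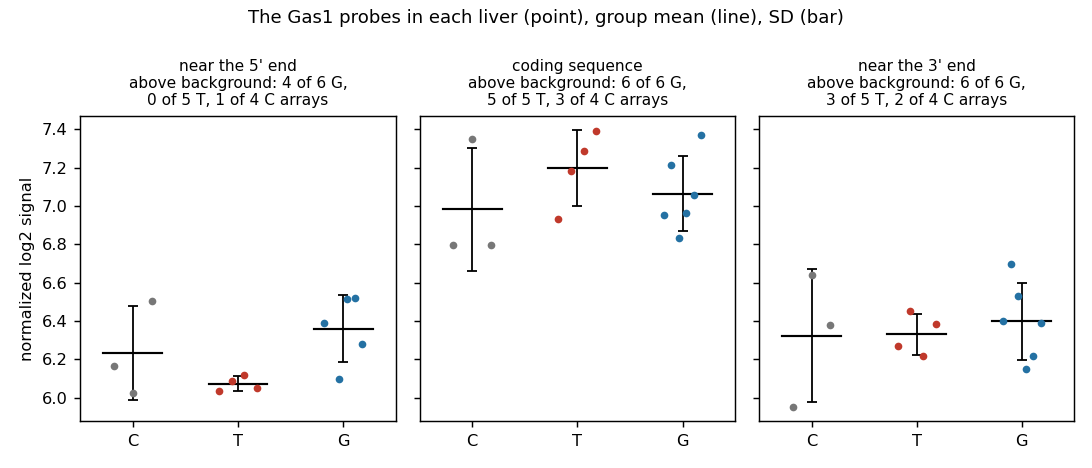
Normalized log2 signal of the 3 Gas1 probes (panels) in each liver of groups C, T and G, with the mean (line) and SD (bar) and the number of arrays on which the probe was well above background. The coding probe runs from 6.83 to 7.37 in G and from 6.93 to 7.39 in T. The probe near the 5′ end lies higher on average in G by 0.29, and that near the 3′ end by 0.07.

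Between G and T, 72 of the 12190 genes (0.591%) passed the threshold, 23 higher in G (0.189%) and 49 lower (0.402%). Their differences ranged in size from 0.32 to 3.34 with a median of 0.63, and 14 reached 1 on the log2 scale, 5 higher and 9 lower in G. In 70 of the 72 genes all livers of G lay on 1 side of all livers of T, as they did in 518 (4.25%) of all genes tested, 164 with G above T (1.35%) and 354 with G below T (2.9%). An unadjusted p under 0.05 was reached by 1653 genes (13.6%), 647 higher and 1006 lower in G. The median over all genes was -0.02. The count depended on single livers. It was 3 without liver T2 or T3, 4 without T4 and 166 without T1, it was 33, 11, 10 and 9 without G1, G2, G3 and G5, and it was 13 and 46 without C2 and C3. It was 16 when groups G and T were normalized and fitted without group C. All 41 called genes named here kept their sign within each of both slides and in each of the other alternatives that gave a value. Apart from Pltp none of them overlapped between G and T, so their sign within a slide or without 1 liver was largely fixed beforehand.

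**Figure D2:**
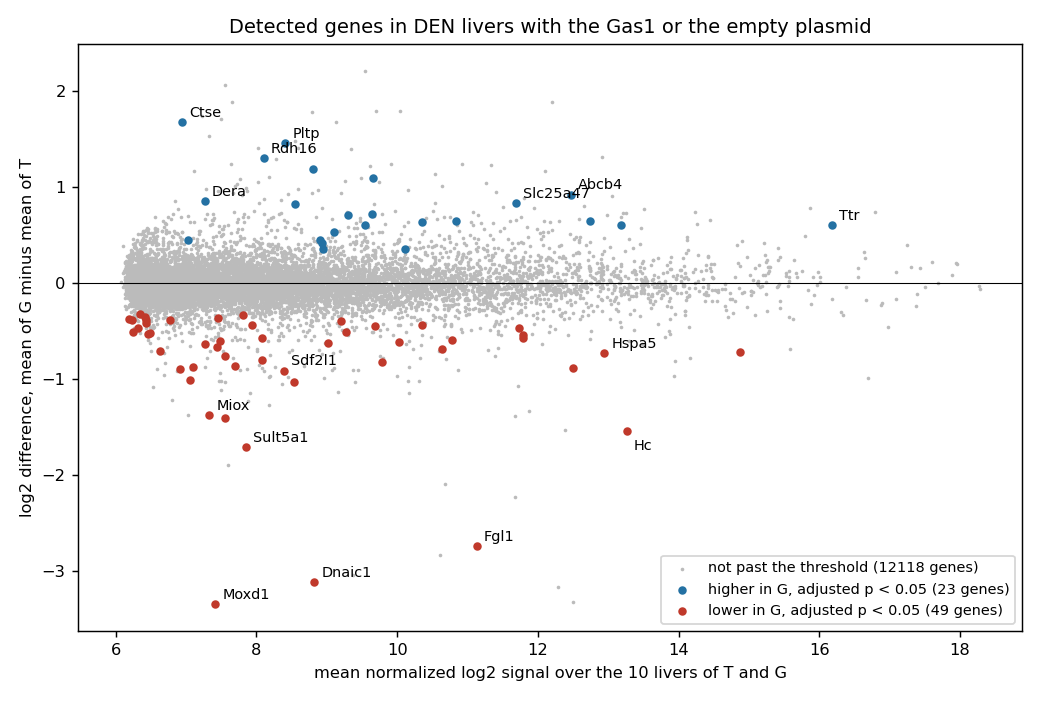
Log2 difference between groups G and T (vertical axis) against the mean log2 signal over the 10 livers (horizontal axis) for 12190 detected genes, with the 23 genes higher in G in blue and the 49 lower in red. The genes of the largest called differences are lower in G, with Moxd1 at -3.34, Dnaic1 at -3.11 and Fgl1 at -2.74, while Ctse lies highest among the called genes at 1.67.

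The clearest rise was that of Ctse, which codes for cathepsin E, an aspartic protease of the endosomes of immune and epithelial cells. Its signal (chromosome 1, 133571990 to 133572049, mm9) was 7.39, 7.59, 7.85, 7.21, 7.79 and 7.80 in the livers of G and 5.94, 5.86, 5.98 and 5.96 in those of T. All livers of G lay above all livers of T, whose probe did not rise well above background on any of the 5 arrays. The gene thus counted as detected through group G alone. Ctse was therefore at least 2.52-fold higher in G, against the weakest signal still above background, with a measured difference of 1.67 (SE 0.16, adjusted p = 0.000518 from limma). The livers of group C had a mean of 8.25 ± 0.46 (SD, n = 3). The difference was 1.68 within slide 1 and 1.65 within slide 2.

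Slc25a47, a mitochondrial carrier made mainly in liver, gave 12.02, 11.97, 12.17, 11.96 and 11.95 in the 5 livers of G with a valid spot and 11.29, 11.15, 11.27 and 11.03 in T. The groups were far apart relative to their spread, with a difference of 0.83 (SE 0.08, adjusted p = 0.000518). This depended on the scaling. With 75th percentile scaling, median scaling and the processed signal the difference was 0.66, 0.63 and 0.62. It missed the threshold there (adjusted p = 0.277, 0.999 and 0.12 from limma). The spot of liver G5 carried an outlier flag and was left out of that value. Group C lay between both, at 11.53 ± 0.07 (SD, n = 3).

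Of the other genes that rose, Rdh16, a retinol dehydrogenase, lay between 8.13 and 9.29 in G and between 6.87 and 7.94 in T, a difference of 1.30 (SE 0.24, adjusted p = 0.0377). Pltp, the phospholipid transfer protein of plasma, rose by 1.45 (SE 0.28, adjusted p = 0.0403), although liver G4, at 7.90, fell below liver T1, at 8.03. Abcb4, the canalicular phospholipid transporter that protects the bile duct from bile salts, lay between 12.63 and 12.99 in G and between 11.31 and 12.33 in T, with a difference of 0.92 (SE 0.17, adjusted p = 0.0377). Nceh1, a neutral cholesterol ester hydrolase, differed by 0.82 (SE 0.12, adjusted p = 0.0162) and did not overlap either. Ppap2b, a lipid phosphate phosphatase, differed by 0.63, and Pm20d1, an enzyme that makes N-acyl amino acids, by 0.60.

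Dera, the deoxyribose-phosphate aldolase of deoxynucleoside breakdown, lay between 7.50 and 7.85 in G and between 6.66 and 6.85 in T, a difference of 0.85 (SE 0.12, adjusted p = 0.0162). Akr1c19 and Gstt2, enzymes that reduce or conjugate small molecules, rose by 1.09 and 0.72, and Gm10639, a gene model of the array design, by 1.19. Ttr, the carrier of thyroid hormone and of the retinol-binding protein in plasma, rose by 0.60 (SE 0.11, adjusted p = 0.0377), from 15.60 to 16.06 in T to 16.26 to 16.62 in G. Its size depended on the scaling, as the difference of Ttr was 0.29 with 75th percentile scaling, 0.28 with median scaling and 0.23 with the processed signal, and it missed the threshold there, with cyclic loess (0.53, adjusted p = 0.0688) and in the deposited log2 table (0.53, adjusted p = 0.169). Pinx1, an inhibitor of telomerase, Ypel3 and the translation initiation factor Eif1 rose by 0.70, 0.64 and 0.64. With 75th percentile scaling, median scaling and the processed signal the other named genes that rose missed the threshold too, except Ctse and Dera. Ctse passed under each of them, and Dera under all but median scaling. Group C did not lie on the side of G in every one of these genes. In Akr1c19, for instance, its mean was 9.36, near the 9.003 of T and below the 10.09 of G, whereas in Ttr it was 16.83, above both.

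Among the genes that fell, Dnaic1, which codes for a dynein intermediate chain of motile cilia, had the smallest p. Its signal (chromosome 4, 41585121 to 41585180, mm9) was 7.80, 7.53, 7.11, 8.34, 7.04 and 7.65 in G and 10.60, 10.08, 11.04 and 11.05 in T. Even the highest liver of G stayed far below the lowest of T, and the difference was -3.11 (SE 0.25, adjusted p = 0.00012 from limma). It was -2.84 within slide 1 and -3.46 within slide 2, and group C had a mean of 6.78 ± 0.31 (SD, n = 3). Dnaic1 was counted in a list of primary cilium genes, although it belongs to motile cilia. None of the other 14 detected members of that list passed the threshold, and its median was -0.09. No list of motile cilium genes was drawn up.

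Hc codes for complement C5, made by hepatocytes. Its single probe gave 12.47, 12.59, 12.88 and 12.65 in the 4 livers of G with a valid spot and 14.18, 14.16 and 14.23 in the 3 of T. The groups did not overlap, and the difference was -1.55 (SE 0.20, adjusted p = 0.0162). With the flagged spots of livers G4, G5 and T1 kept it was -1.44 (adjusted p = 0.00114). With 75th percentile scaling and median scaling Hc missed the threshold (adjusted p = 0.0977 and 0.371 from limma). Of all genes lower in G, Dnaic1 alone passed with median scaling.

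Fgl1, a fibrinogen-like protein secreted by hepatocytes, was 9.60, 10.22, 9.53, 9.72, 9.76 and 11.38 in G and 11.85, 14.85, 11.89 and 12.51 in T. The difference was -2.74 (SE 0.52, adjusted p = 0.0377), and liver T2 stood well above the other livers of T. Without T2 it was -2.05 (adjusted p = 0.0561). Moxd1, a copper monooxygenase, had the widest difference of the called genes, -3.34 (SE 0.65, adjusted p = 0.0406), with an SD of 2.11 in group T. Its livers of T lay at 6.55, 11.34, 9.17 and 10.61, so that T1 stood near the livers of G, which lay between 5.90 and 6.25, with the probe well above background on 1 of their 6 arrays. Without T2 the difference was -2.70 (adjusted p = 0.12).

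The remaining falls of the 15 largest were in Sult5a1, a sulfotransferase (-1.71), Ttbk1, a kinase of tubulin (-1.40), Miox, the first enzyme of inositol breakdown (-1.37), Erp27, an ER protein related to disulfide isomerases (-1.03), Rint1, a tether of transport between ER and Golgi (-1.01), Sdf2l1 (-0.91), Tspan8, a tetraspanin of epithelia (-0.90), Enho, which codes for the peptide adropin (-0.88), Hist2h3c2-ps (-0.88), Atp11a, a phospholipid flippase (-0.87), and BC029722 (-0.82). In each of these 11 genes every liver of G lay below every liver of T, which was a condition for naming them and no further result. The margins were narrow in several of them. The highest liver of G and the lowest of T lay at 7.18 and 7.21 in Miox, 7.05 and 7.09 in Hist2h3c2-ps, 8.404 and 8.485 in Erp27, 7.07 and 7.16 in Tspan8, 7.44 and 7.54 in Ttbk1, and 7.62 and 7.84 in Sult5a1.

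**Figure D3:**
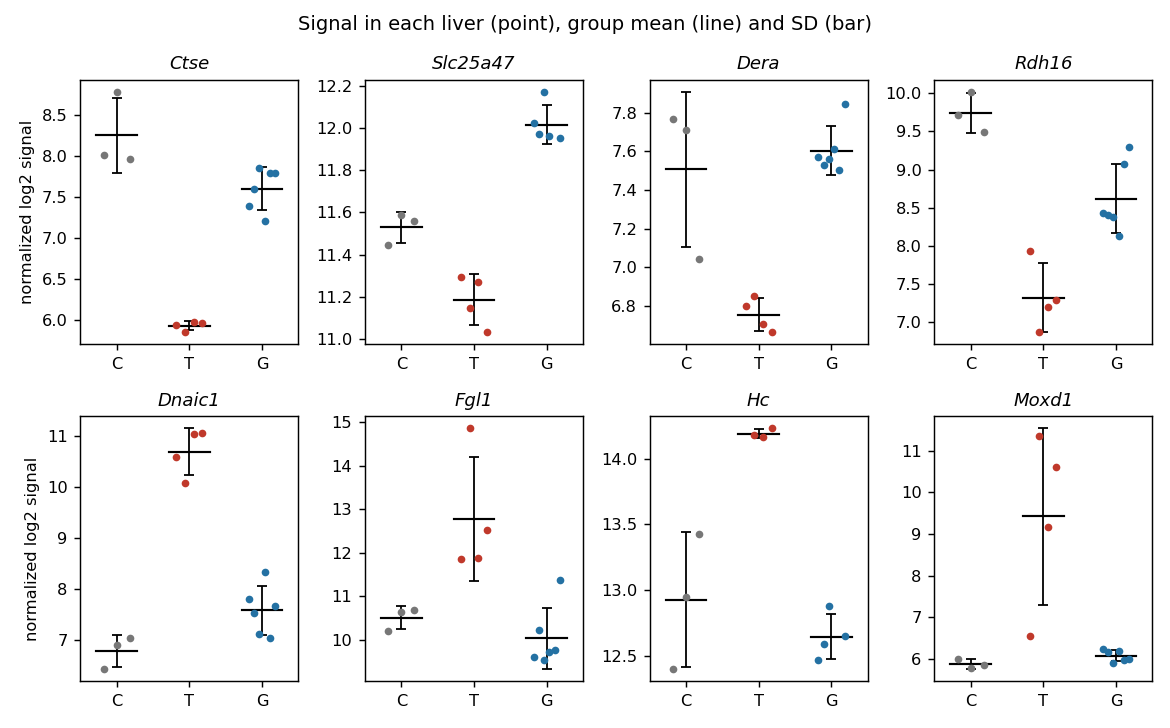
Normalized log2 signal of 8 genes (panels, each with its own axis) in each liver of groups C, T and G, with the mean (line) and SD (bar). In every panel the livers of G and T are apart, which was a condition for naming the largest differences. Single livers such as T2 in Fgl1 (14.85) and T1 in Moxd1 (6.55) stand away from the rest of group T.

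Over 5 lists of the secretory pathway, with 105 detected genes in all, 7 genes fell and none rose at the threshold. At an unadjusted p under 0.05, 51 were lower and none higher, and 100 had a difference below 0. Over all 12190 detected genes 1006 (8.25%) were lower and 647 (5.31%) higher at that p, and 6945 had a difference below 0. The differences were modest in size, and the lists were drawn up with earlier results of these data known.

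The folding list holds the chaperones and folding enzymes of the ER. Of its 23 detected members, 3 fell, 13 were lower at an unadjusted p under 0.05, and the median was -0.31, with -0.39 within slide 1 and -0.29 within slide 2. Sdf2l1, a partner of ER chaperones, was 8.08, 8.20, 7.91, 8.49, 7.60 and 7.88 in G and 9.09, 9.24, 8.65 and 8.79 in T, a difference of -0.91 (SE 0.15, adjusted p = 0.0377). Hspa5, which codes for BiP, the main chaperone of the ER lumen, was 13.04, 12.78, 12.57, 12.53, 12.42 and 12.55 in G and 13.65, 13.35, 13.30 and 13.23 in T. Its groups did not overlap, and the difference of -0.73 (SE 0.15) had an adjusted p of 0.0489. Calr, the calcium-binding lectin calreticulin, fell by 0.46 (SE 0.10, adjusted p = 0.0497). Hspa5 and Calr stood close to the threshold and passed it in 11 and 8 of 34 alternatives. Creld2 and Manf, which are secreted or retained under ER load, had differences of -1.02 and -0.90 without overlap and missed it (adjusted p = 0.0543 and 0.054).

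Lists of the neighbouring steps showed the same direction with smaller sizes. Of 23 detected genes of ER entry, which recognise, translocate and trim nascent proteins, Ssr1, a subunit of the translocon-associated complex, fell by 0.33 (SE 0.06, adjusted p = 0.0403), 14 were lower at an unadjusted p under 0.05, and the median was -0.26. Of 18 genes of N-glycosylation, Gfpt1, the first enzyme of the hexosamine route, fell by 0.57 (SE 0.08, adjusted p = 0.0162) and Slc35b1, an ER nucleotide carrier, by 0.59 (SE 0.12, adjusted p = 0.0432), with a median of -0.22. Gfpt1 lay between 7.75 and 8.004 in G and between 8.30 and 8.54 in T. All 28 genes of transport from ER to Golgi had a difference below 0, with a median of -0.20, and Tmed3, a cargo receptor, fell by 0.69 (SE 0.13, adjusted p = 0.0377). All 13 genes of ER disposal, which return misfolded proteins for degradation, were below 0 as well, at a median of -0.19, but none passed the threshold. Without liver T2 none of the members of these lists passed, and their medians stayed between -0.31 and -0.16. With median scaling none of the members passed either. With 75th percentile scaling Sdf2l1, Hspa5 and Gfpt1 still passed (adjusted p = 0.0478 each from limma), while Calr, Ssr1, Slc35b1 and Tmed3 missed the threshold.

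Sensors, transcription factors and some targets of the unfolded protein response formed a separate list, while chaperones such as Hspa5, Calr and Sdf2l1 were counted in the folding list. Of 16 detected genes none passed the threshold, 4 were lower and 1 higher at an unadjusted p under 0.05, and the median was -0.06. Xbp1, the factor that drives many ER genes, had a difference of -0.37 (adjusted p = 0.205). The others lower at that p were Asns, Atf6b and Eif2ak3, with differences of -1.14 (SE 0.49), -0.15 (SE 0.07) and -0.22 (SE 0.10). Ddit3 and Herpud1, common markers of ER stress, had differences of -0.05 and -0.03.

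The level of a list in a liver was taken as the median of its genes after each gene had been centred. For ER folding it ran from -0.29 to 0.03 in G, from 0.08 to 0.34 in T and from -0.11 to 0.05 in C. For transport to the Golgi it ran from -0.15 to 0.02 in G, from 0.07 to 0.19 in T and from -0.07 to 0.20 in C, which overlapped both. The livers of G and T did not overlap in either, and livers G1, G2 and G4 stood nearest to group T.

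**Figure D4:**
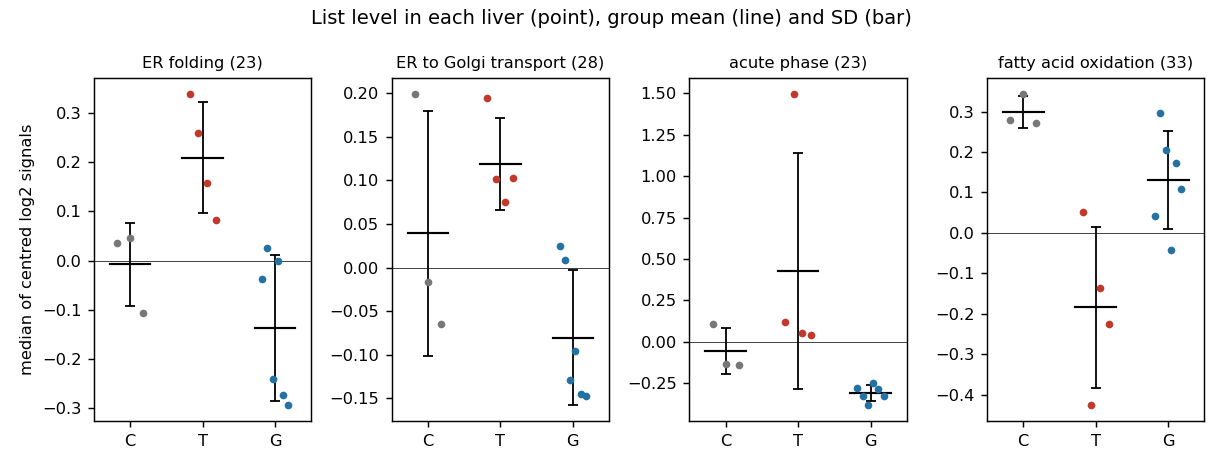
Level of 4 gene lists in each liver of groups C, T and G, as the median over the list's genes (number in brackets) of log2 signals centred per gene, with the mean (line) and SD (bar). ER folding and transport to the Golgi are lower in every liver of G than in any of T, the acute phase level of liver T2 (1.496) stands apart from the other livers of T (0.04 to 0.12), and in fatty acid oxidation T1 and G4 overlap.

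Some promoters of the folding genes hold a known motif, the ER stress element (CCAAT, then 9 bases of any kind, then CCACG), which ATF6 and NF-Y bind. It was sought on both strands from 250 bases before to 50 after each start in the RefSeq promoter table (GRCm38.p6). Of 20 folding genes with a promoter there, 8 (40.0%) held it, against 19 (0.204%) of 9330 detected genes with a promoter and 37 (0.137%) of all 27025 genes of the table. Of the 41 genes called lower in G with a promoter 2 (4.88%) held it, Hspa5 and Calr, and of the 15 called higher none. The bases before the start are shown for these genes, as they are the called genes that hold the motif, with its fixed letters in capitals.

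Hspa5, chr2:34771840-34772089, plus strand: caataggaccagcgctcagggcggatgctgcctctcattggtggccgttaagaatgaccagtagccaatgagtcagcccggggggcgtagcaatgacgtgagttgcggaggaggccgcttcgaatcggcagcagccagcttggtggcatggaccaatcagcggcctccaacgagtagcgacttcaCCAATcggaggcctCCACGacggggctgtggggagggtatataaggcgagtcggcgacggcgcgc
Calr, chr8:84846932-84847181, minus strand: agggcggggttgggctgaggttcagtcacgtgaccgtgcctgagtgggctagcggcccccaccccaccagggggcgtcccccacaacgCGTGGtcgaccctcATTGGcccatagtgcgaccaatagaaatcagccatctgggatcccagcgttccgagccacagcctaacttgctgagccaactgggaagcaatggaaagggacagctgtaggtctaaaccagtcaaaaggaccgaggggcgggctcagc

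In Calr the motif reads on the opposite strand, so that its letters appear as the reverse complement. Over the ER lists together, the 10 genes with the motif had a median difference of -0.38 and the 75 without it -0.20, given as a description. As 8 of the 10 belong to the folding list, which had the largest fall of these lists, motif and list cannot be told apart there. Within the folding list the median was -0.38 in the 8 genes with the motif and -0.27 in the 12 without it. The related element (ATTGG and CCACG, 1 base apart) was found in 1 of the 20 folding promoters, and the site of PPAR receptors (AGGTCA repeated after 1 base) in none of 24 promoters of fatty acid oxidation genes.

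The acute phase list had the largest median of all lists, -0.70 over 23 detected genes, of which 15 were lower at an unadjusted p under 0.05, none higher, and none passed the threshold. Liver T2 set much of this size. Saa1, serum amyloid A, was 11.27, 10.96, 10.85, 11.41, 11.16 and 11.32 in G and 12.39, 18.40, 12.80 and 14.35 in T. All livers of T lay above all of G, but T2 by a wide margin, and the difference of -3.32 (SE 0.87) had an adjusted p of 0.101. The SD of Saa1 was 0.22 in G and 2.74 in T. Haptoglobin, Hp, lay between 15.95 and 16.71 in G and at 16.82, 18.34, 17.03 and 16.97 in T, a difference of -0.99 (adjusted p = 0.0925). Itih4, an inhibitor heavy chain of plasma, was between 13.45 and 13.75 in G and between 14.15 and 15.22 in T, a difference of -0.81 (adjusted p = 0.0631). Without liver T2 the list median was -0.33, 11 genes were lower at an unadjusted p under 0.05, and the difference of Saa1 was -2.02 (adjusted p = 0.105) and that of Itih4 -0.55 (adjusted p = 0.0561). The list level lay between -0.38 and -0.25 in G and between 0.04 and 1.496 in T.

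The called genes of the complement list were Hc and C4b, a component of the classical pathway, which fell by 0.72 (SE 0.14, adjusted p = 0.042). Of its 27 detected genes, 7 were lower and 1 higher at an unadjusted p under 0.05, and the median was -0.13, or -0.29 with 75th percentile scaling. The metallothioneins Mt1 and Mt2, which bind zinc and rise in the acute phase, had differences of -2.23 and -2.83 with wide errors (SE 0.90 and 0.93, adjusted p = 0.3 and 0.199). In Mt2 liver T2 stood at 16.41 and T1, at 9.19, within the range of G, 9.13 to 9.92.

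Fatty acid oxidation genes lay on the other side. Of 33 detected genes, 32 had a difference above 0, 18 were higher and none lower at an unadjusted p under 0.05, and the median was 0.32, with 0.48 within slide 1 and 0.34 within slide 2. None passed the threshold. Acot1, an acyl-CoA thioesterase, came closest, at 8.43, 9.25, 8.87, 8.66, 8.53 and 9.03 in G and 8.33, 6.53, 7.65 and 7.51 in T, a difference of 1.29 (SE 0.28, adjusted p = 0.0556). Its groups did not overlap, though T1 almost reached the lowest liver of G. Acadvl, the dehydrogenase of very long chains, had a small but even difference of 0.26 (SE 0.06, adjusted p = 0.0866), and Fabp1, the fatty acid binding protein of liver, one of 0.73 (SE 0.18, adjusted p = 0.0909). The list level lay between -0.04 and 0.30 in G, between -0.43 and 0.05 in T and between 0.27 and 0.34 in C. Without T2 the median was 0.29 and 16 genes were higher at an unadjusted p under 0.05. With 75th percentile scaling, median scaling and the processed signal the median was 0.24, 0.20 and 0.21.

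Other metabolic lists were nearer to the median of all genes. In glucose metabolism 9 of 25 genes were higher and 1 lower at an unadjusted p under 0.05, with a median of 0.15 that was 0.0059 with 75th percentile scaling, -0.0071 with median scaling and -0.045 with the processed signal. Slc2a2, the glucose transporter of hepatocytes, had a difference of 0.60 (adjusted p = 0.0945). Of 27 subunits of oxidative phosphorylation 4 were higher and none lower, with a median of 0.13 that turned to -0.021, -0.034 and -0.070 under the same 3 scalings. In the antioxidant list 8 of 19 genes were higher and 2, the metallothioneins, lower, and Gsta2, a glutathione transferase, had a difference of 0.98 (adjusted p = 0.0691). None of these metabolic genes passed the threshold.

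Of 20 detected markers of mouse liver tumours, Tspan8 fell and 9 were lower, none higher, at an unadjusted p under 0.05, with a median of -0.38, or -0.89 with the processed signal. Afp, alpha-fetoprotein, was 6.66, 7.15, 7.26, 7.50, 7.37 and 8.39 in G and 7.41, 9.16, 8.98 and 8.92 in T. Liver G6 stood among the livers of T and T1 among those of G, and the difference was -1.23 (SE 0.34, adjusted p = 0.124). Gpc3, the oncofetal proteoglycan glypican 3, lay between 5.94 and 6.37 in G and between 6.59 and 7.75 in T, a difference of -0.71 (adjusted p = 0.106). H19, an imprinted RNA of fetal liver, reached 11.83 in G6 and at most 7.72 in the other livers of G, against 7.39 to 9.005 in T. The level of this list ran from -0.51 to 0.44 in G and from -0.11 to 0.72 in T, so that the groups overlapped.

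Of 20 detected genes of S phase and mitosis, which mark cycling cells, none passed the threshold, 1 was higher and none lower at an unadjusted p under 0.05, and the median was 0.08. Mki67, the antigen of cycling cells, had a difference of 0.11 (SE 0.17) and Ccna2, cyclin A, one of 0.03 (SE 0.11). Among 18 detected genes of G1 to S control, E2f2, a factor that drives entry into S phase, fell by 0.67 (SE 0.13, adjusted p = 0.0377), from 7.53 to 8.17 in T to 6.98 to 7.46 in G, while the median of the list was -0.02. The probe of Ccne2, cyclin E2, stayed at background on every array of G and T.

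Of 18 hedgehog genes 7 were detected, and none passed an unadjusted p of 0.05. Ihh, a ligand, had a difference of 0.30 (SE 0.16), Ptch1, a receptor and target, 0.14 (SE 0.14), Smo, the transducer, -0.04 (SE 0.08), and Hhip, a target that binds the ligands, 0.03 (SE 0.12). Gli1, Gli2 and Gli3, the transcription factors, were not detected. Of 12 detected genes that the study picked on these samples and linked to this route, which is no independent evidence of a direction, 9 were lower and 1 higher at an unadjusted p under 0.05, and Wif1 passed the threshold. Wif1, a secreted inhibitor of WNT ligands, was at least 1.29-fold lower in G, where no array held it well above background (adjusted p = 0.0377, measured difference -0.51). Wif1 thus counted as detected through group T alone. With 75th percentile scaling and median scaling it missed the threshold (adjusted p = 0.182 and 0.163 from limma). Bmi1, a polycomb protein, and Ick, a ciliary kinase, had differences of -0.41 (adjusted p = 0.0945) and -0.21 (adjusted p = 0.18).

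The other genes measured by PCR in the study were examined as well. Capn8, a calpain, had a difference of -0.90 (SE 0.19, adjusted p = 0.0564), with liver G4, at 6.85, above liver T1, at 6.46. Wars, the tryptophan tRNA synthetase, had one of -0.32 (adjusted p = 0.116) without overlap. Its probes differed by -0.44 and -0.20 (adjusted p = 0.0392 and 0.504 from limma over the detected probes). The paper describes Wars1 by PCR as changing like Ctse, which fell in tumours and was restored by Gas1. Here the mean of T, at 8.27, lay above that of G, at 7.95. Arfrp1, a small GTPase, had one of 0.24 (adjusted p = 0.323). Hsph1, a cytosolic chaperone, was the called gene of the heat shock list and fell by 0.80 (SE 0.14, adjusted p = 0.0377).

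**Figure D5:**
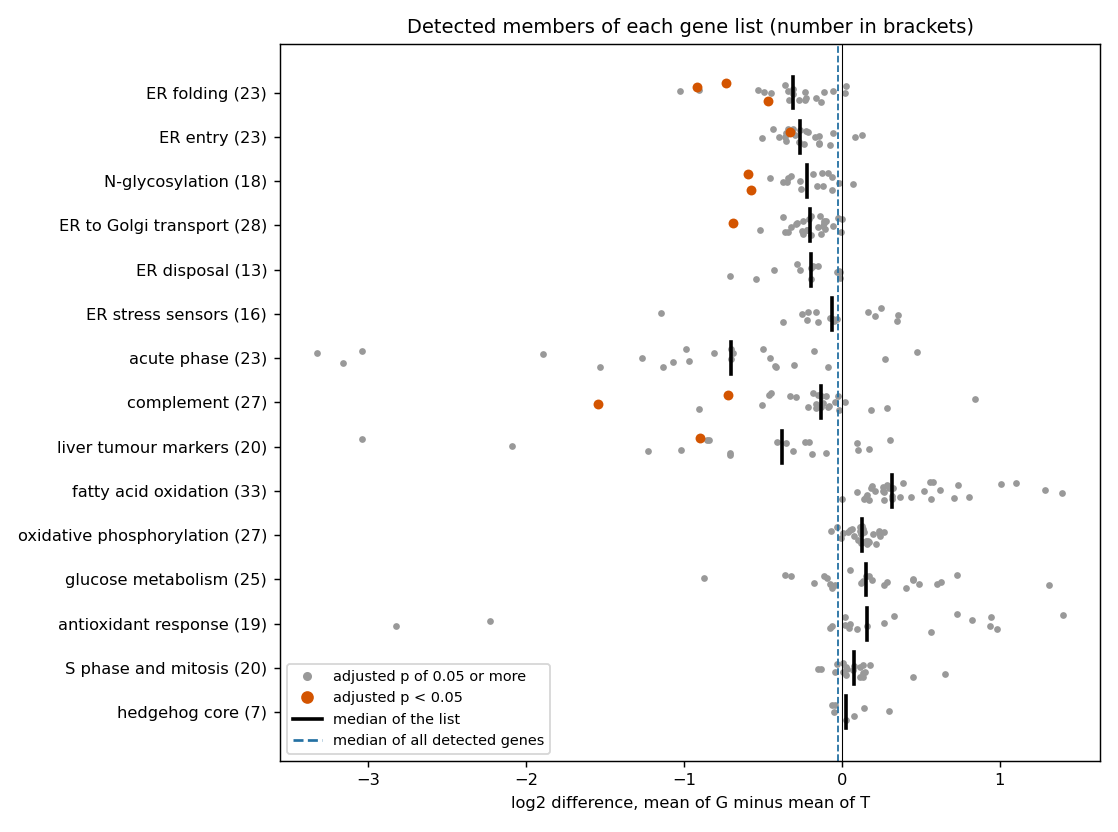
Log2 differences between groups G and T of the detected members of 15 gene lists (one point per gene, number of genes in brackets), with the median of each list (black line) and of all detected genes (dashed line, -0.02), and the genes past the threshold in orange. The 5 secretory lists and the acute phase list lie to the left of 0, at medians from -0.70 to -0.19, and fatty acid oxidation to the right, at 0.32.

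The lists of T and NK cells (11 of 19 detected), B and plasma cells (5 of 14), macrophages and Kupffer cells (16 of 22), endothelium (14 of 16) and stellate cells and matrix (24 of 30) had medians between -0.06 and 0.07, although with the processed signal that of T and NK cells was 0.33. None of their genes passed the threshold. Bile duct markers (13 of 19) had a median of -0.07 and shared Tspan8 with the tumour list, and their summed linear signal was 16066 to 21500 in G and 19927 to 25161 in T. Neutrophil markers (7 of 12) had a median of -0.14, with sums of 2682 to 8097 in G and 3153 to 6233 in T. Exocrine pancreas markers (5 of 16) had a median of -0.24, with sums of 567 to 620 in G and 562 to 1141 in T, the highest in T2, where Amy2a5, an amylase, was 9.50 against 8.18 to 8.24 in the other livers of T. The part of these cells in the results was not tested.

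The difference between the groups was of the same order as that between livers of 1 group. Over 11332 genes with a value in all 10 livers, the root mean square log2 difference between a pair of livers had a median of 0.35 within G, 0.31 within T and 0.36 between G and T. Livers G1 and G2 were the closest pair of G, at 0.23, and T3 and T4 that of T, at 0.22. The pair farthest apart was G3 and T2, at 0.50. The first principal component held 30.5% of the variance and placed T2, T4 and T3 at one end, at -31.01, -14.06 and -10.86, and G3 and G5 at the other, at 17.90 and 15.88, with T1, at 6.64, among the livers of G. The SD of a gene had a median of 0.16 in G and 0.12 in T.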

How the data were processed

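Liver RNA was hybridised to single-colour Agilent SurePrint G3 Mouse arrays. Per-spot intensity values, background and flags from Feature Extraction 10.7.3.1 were deposited by the authors, and a table of log2 values after normexp and quantile normalization, used as an alternative. The labels name a TRIzol extraction and the methods a spin column kit. Here the mean signal was corrected with normexp (offset 50), quantile normalized across all 15 arrays on 59305 spots, controls left out, and flagged spots were set to missing. Quantile normalization hides a shift shared by most genes. Probes were centred and averaged per symbol, and arrays of 1 RNA code were averaged. Of these values 98.9% lay within 0.05 of the log2 values deposited by the authors. Of 22032 symbols, 18911 match a RefSeq symbol and 2255 a synonym. Probes without a symbol (16251 lincRNA, 9908 other) were left out.

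The groups were fitted in 1 model with limma 3.58.1 in R 4.3.3 (lmFit, eBayes without trend, median of 13.5 degrees of freedom), and the contrast G minus T was tested over 12190 detected genes. The script was tested on simulated data. Named are the 15 highest and 15 lowest differences among called genes without overlap, Gas1, the genes that the study measured by PCR, and the called members of each list with up to 4 members of smallest p. Alb, Creld2, Ddit3, Herpud1, Mt1, Mt2, Fabp1, Afp, H19, Mki67, Ccna2, Smo and Hhip were named outside this rule, after their values were seen. Lists got no test of their own. The comparison and the lists were chosen with earlier results of these data known. Where every array of a group left a probe at background, the fold is given as "at least", against the weakest signal still above background there. Precision is limited by the number of livers.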

Additional observations from a re-analysis of the deposited data

Results flagged for a closer look

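Single livers stood apart from the rest of their group in 12 sets of values, where the gap to the nearest liver was set against the whole range of the group. Such a criterion marks about 1 in 20 groups by chance, and 6 of 93 gene values and 6 of 100 list levels were marked. Among genes, liver G6 was highest in Dera (7.85 against 7.50 to 7.61, gap over range 0.681) and in Pinx1 (9.95 against 9.45 to 9.58, 0.744). Liver T1 was lowest in Erp27 (8.49 against 9.36 to 9.39, 0.966) and in Hist2h3c2-ps (7.09 against 7.75 to 7.88, 0.838). Liver T2 was highest in Atp11a (8.82 against 7.96 to 8.06, 0.884), and G4 in Capn8 (6.85 against 6.03 to 6.20, 0.797).

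Among list levels, T2 was highest in the acute phase (1.496 against 0.04 to 0.12, 0.944), T3 lowest in sterol synthesis (-0.20 against 0.15 to 0.22, 0.847) and T4 lowest in N-glycosylation (0.04 against 0.14 to 0.16, 0.870). In group G, G3 was lowest in the hedgehog list (-0.09 against 0.02 to 0.06, 0.706), G1 highest in S phase and mitosis (0.37 against -0.11 to 0.05, 0.672), and G6 highest in bile duct markers (0.13 against -0.14 to -0.06, 0.715).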

How the results depend on the processing

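The 72 genes that differed between G and T became 18 with 75th percentile scaling (88.9% lower in G, against 68.1%), 2 with median scaling (50% lower), 127 with cyclic loess (55.9% lower), 26 with Agilent's processed signal (57.7% lower), 29 without a filter on dim probes, 339 with arrays of 1 RNA code as separate livers, 16 with G and T alone, 7 and 4 within slides 1 and 2, 340 with array weights, and 7 and 3 by a two-tailed t-test with equal and unequal variances. With a probe required on all 11 arrays 69 passed, 56.5% lower. Leaving out 1 liver gave 3 to 166. The cause of these shifts was not tested. The other alternatives gave 48 to 103 genes. The replicate number as a block left 9. The numbers did not pair the livers, as deviations of livers of the same number correlated at -0.31, 0.11, -0.08 and -0.21. The Gas1 difference reversed to -0.063 within slide 1 and to -0.13 with the brightest probe, reached 0.78 at most, and missed the threshold in every alternative. Of the 41 named genes that passed, none changed sign in up to 34 alternatives, and they passed in 8 to 32 of them, with a median of 15. Their sign was largely fixed beforehand, as most were named for a lack of overlap. Under the scaling alternatives the medians of the 5 secretory lists and of the acute phase kept their sign, and at the extreme, with the processed signal, ER folding was at -0.48, ER entry at -0.47 and the acute phase at -1.07. The list counts without liver T2 were added after the data had been seen. Precision is limited by 4 livers of T.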
